A study of Caenorhabditis elegans with 2 samples.

Results

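The nuclear genes of the mitochondrial respiratory chain were examined in a map of chromatin binding by the Caenorhabditis elegans protein Y105C5A.15. They were taken by symbol, as the protein-coding genes whose names start with nuo-, nduf-, cox-, ucr-, cyc-, sdha-, sdhb-, sdhd-, atp-, asb- or asg-, together with gas-1, isp-1, mev-1 and lpd-5. This gave 52 of the 19973 protein-coding genes that the Ensembl annotation places on the nuclear chromosomes. By general knowledge of the worm proteins, 14 of them belong to complex I, 5 to complex II, 7 to complex III and 9 to complex V, 7 are subunits of complex IV, 8 are assembly factors of complex IV, and 2 encode cytochrome c. The 12 protein-coding genes of the mitochondrial genome were left out. The map was made by chromatin immunoprecipitation and sequencing (ChIP-seq) in whole L4 larvae aged 48 hours, synchronised by starvation at the first larval stage after bleaching, in 2 biological replicates of 1 group. All larvae were of strain OP773, which carries unc-119 (tm4063) and the integrated transgene wgIs773, made of Y105C5A.15 tagged with TY1, EGFP and 3xFLAG and of a rescuing unc-119(+). The labels do not say whether the endogenous gene is intact or how strongly the transgene is expressed. Sonicated chromatin was precipitated with an antibody against GFP. Both replicates carried the tagged protein, and no sample without it was analysed here, so binding by the protein and antibody signal that does not need it cannot be told apart at any peak. Many whole larvae went into each sample, and strong binding in a few cells cannot be told apart from weak binding in many.

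The respiratory chain sits in the inner mitochondrial membrane. Complex I takes electrons from NADH and complex II from succinate, both pass them to coenzyme Q, complex III hands them on to the small carrier cytochrome c, and complex IV transfers them to oxygen. Complexes I, III and IV pump protons as they do so, and complex V, the ATP synthase, uses the proton gradient to make ATP. All complexes other than complex II contain subunits from both genomes. A further 32 nuclear genes for subunits or assembly factors have names outside the symbols used here and are counted separately below. The genes described here are therefore only part of the nuclear genes of the chain. In the worm, mutations in several of these genes, among them gas-1, isp-1, nuo-6 and mev-1, are known to alter oxygen use, stress resistance and lifespan.

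The deposited lists give the position, the summit and a signal value of each peak. The signal is the authors' own value for the peak, in a scaling that the sources used here do not give, and no read counts accompany it, so the sequencing depth is unknown. Peaks were ranked by the irreproducible discovery rate (IDR), the expected share of peaks at that rank or better whose rank does not repeat between paired sets of data. The main list holds 1046 peaks with an IDR of at most 0.01, from a ranked list of 103220 peaks over both replicates. The ranked lists of replicate 1 and replicate 2 hold 48421 and 54844 peaks, with a median signal of 13.0 and 13.5. A gene was counted as carrying a summit when a summit of the main list lay from 1000 bases upstream to 200 bases downstream of its start. The strongest ranked peak in the same window gave a signal for the other genes.

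Summits lay in the windows of 6 of the 52 genes, or 11.5% (95% exact Clopper-Pearson interval 4.35 to 23.4%), against 1.94% of all nuclear protein-coding genes (388 of 19973). They were the complex IV subunit genes cox-5A, cox-5B and cox-6A, the complex I genes nduf-2.2 and nduf-9, and the cytochrome c gene cyc-2.1. By complex this was 3 of 7 genes of complex IV (42.9%, interval 9.9 to 81.6%), 2 of 14 of complex I (14.3%, interval 1.78 to 42.8%) and 1 of 2 cytochrome c genes. None of the 5 genes of complex II, the 7 of complex III, the 9 of complex V or the 8 assembly factors carried one, and these small numbers allow shares of up to 52.2%, 41.0%, 33.6% and 36.9%. The intervals of all complexes overlap, no test between complexes was made, and the intervals cover counting error over genes only. The genes are not independent of each other as draws, since they were grouped by function.

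The sequences at the summits of cox-5A, nduf-2.2 and nduf-9 and of the strongest peak outside the list, that of mev-1, are shown with the DNA just upstream of cyc-2.1, because they differ in what they contain. Each is read 5′ to 3′ from the ce11 reference. For cox-5A (III:12905152-12905252, plus strand, intergenic) the capitals mark GGCCGA and, further on, the 11-base word ACGCTCCTCAA that is also present at the cox-5B summit. For nduf-2.2 (III:6464359-6464459, plus strand, inside the non-coding RNA gene T26A5.10) they mark both copies of the longest word that occurs more than once in the stretch. For nduf-9 (III:3249196-3249296, plus strand, which is the strand of the microRNA gene mir-4936) they mark the overlapping words GAACCC and CGAACC and GTTCGA, each taken on either strand. The cyc-2.1 stretch (IV:4749013-4749122, minus strand) is the whole space of 110 bases between the end of rpl-20 and the start of cyc-2.1, which borders the summit and does not include it, and the mev-1 stretch (III:10334083-10334183, plus strand) is intergenic.
cox-5A: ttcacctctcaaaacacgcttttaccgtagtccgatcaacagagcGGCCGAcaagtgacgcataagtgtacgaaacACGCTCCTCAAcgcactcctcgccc
nduf-2.2: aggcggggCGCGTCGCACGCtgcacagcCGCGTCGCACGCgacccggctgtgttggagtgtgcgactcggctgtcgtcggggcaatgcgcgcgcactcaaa
nduf-9: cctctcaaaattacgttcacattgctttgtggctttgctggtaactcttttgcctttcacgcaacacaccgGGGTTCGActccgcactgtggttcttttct
cyc-2.1: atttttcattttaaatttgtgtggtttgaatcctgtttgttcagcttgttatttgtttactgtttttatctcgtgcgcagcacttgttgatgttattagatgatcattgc
mev-1: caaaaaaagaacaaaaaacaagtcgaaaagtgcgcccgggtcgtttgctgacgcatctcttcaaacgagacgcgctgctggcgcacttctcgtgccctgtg

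By pooled signal, the strongest peaks were those of cox-5A and cox-5B, genes of complex IV, cytochrome c oxidase. The peak of cox-6A, of the same complex, was lower (78.7) than those of nduf-2.2 (90.9) and nduf-9 (79.8) of complex I. cox-5A encodes a nuclear subunit on the matrix side of cytochrome c oxidase. Its peak (ce11, III:12905074-12905329, summit 12905202) lay 289 bases upstream of the start in intergenic DNA, and the next coding start, that of the neuropeptide gene flp-14, was 5308 bases from the summit. The signal was 45.6 in replicate 1 (IDR 0.00441) and 79.6 in replicate 2 (IDR 8.8e-05), a mean of 62.6 ± 24.0 (SD, n = 2), and 123 in the pooled list (IDR 0.000133). That pooled value ranked 24th among the 14704 coding genes with any ranked peak in their window and 23rd among the 388 genes called. It was above the 90th percentile of the called genes, whose signal was 104 there and 65.5 at the median. The replicates differed more for cox-5A than for any of the other 5 genes, with replicate 2 the higher.

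cox-5B encodes the zinc-binding subunit next to cox-5A in the same enzyme. Its peak spanned bases 9788571 to 9788826 of its chromosome, with the summit at 9788699, only 26 bases upstream of the start and 1075 bases from the divergent tubulin gene tba-1. The signal was 42.0 in replicate 1 (IDR 0.00338) and 54.3 in replicate 2 (IDR 0.00103), a mean of 48.2 ± 8.66 (SD, n = 2), and 98.5 in the pooled list, 57th among coding genes. Together with cox-5A it was the only gene of the 6 found in the thresholded lists of both replicates taken alone.

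cox-6A encodes a small membrane subunit of complex IV. Its peak (III:5080737-5080992, summit 5080865) lay 859 bases upstream of the gene. The coding gene alh-1, on the same strand, ends at base 5080661, closer to the summit than the start of cox-6A. The signal was 45.5 in replicate 1 (IDR 0.00514) and 34.5 in replicate 2 (IDR 0.0709), a mean of 40.0 ± 7.80 (SD, n = 2), and 78.7 in the pooled list. The summit fell inside the small nuclear RNA (snRNA) gene F54D8.7, which is transcribed on the opposite strand. Of the 6 summits it was the only one within 100 bases of a transfer, small nucleolar, small nuclear or ribosomal RNA gene. The peak matched 20 other places in the genome over at least 50 bases, 19 of them at such small RNA genes, with a longest match of 119 bases of the 256-base peak. No place matched at least 80% of the peak at 90% identity, which 117 of the 1046 main peaks (11.2%) did. Whether the signal belongs to cox-6A, to the snRNA gene or to reads from its copies was not tested.

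The other 4 subunit genes of complex IV had no summit in the main list. cox-6C reached a pooled signal of 27.2, cox-4 of 24.6 and cox-7C of 24.5, close to the median of 22.6 over all coding genes with a ranked peak. In replicate 2, cox-4 had 29.6 at another peak of its window (IDR 0.768). cox-6B had no ranked peak in its window. Its annotated start belongs to a transcript spanning 87197 bases, and the window of its shorter transcript of 553 bases held no ranked peak either. Among the 8 assembly factors, which supply heme and copper to the enzyme or help build it, the copper chaperone gene cox-17 was the highest at 33.4 (315 bases upstream, IDR 0.294), with 13.96 in replicate 1 and 15.6 in replicate 2. cox-15, for heme A synthesis, followed at 32.1, and cox-19 (5.93) and cox-16 (3.03) were among the lowest values of all 52 genes. The median of the assembly factors was 19.4, against 52.9 for the 6 subunit genes with a ranked peak. No subunit gene lay between 27.2 and 78.7, so 52.9 is the middle of a gap. cox-4, cox-6C and cox-7C lay within the range of the assembly factors.

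**Figure D1:**
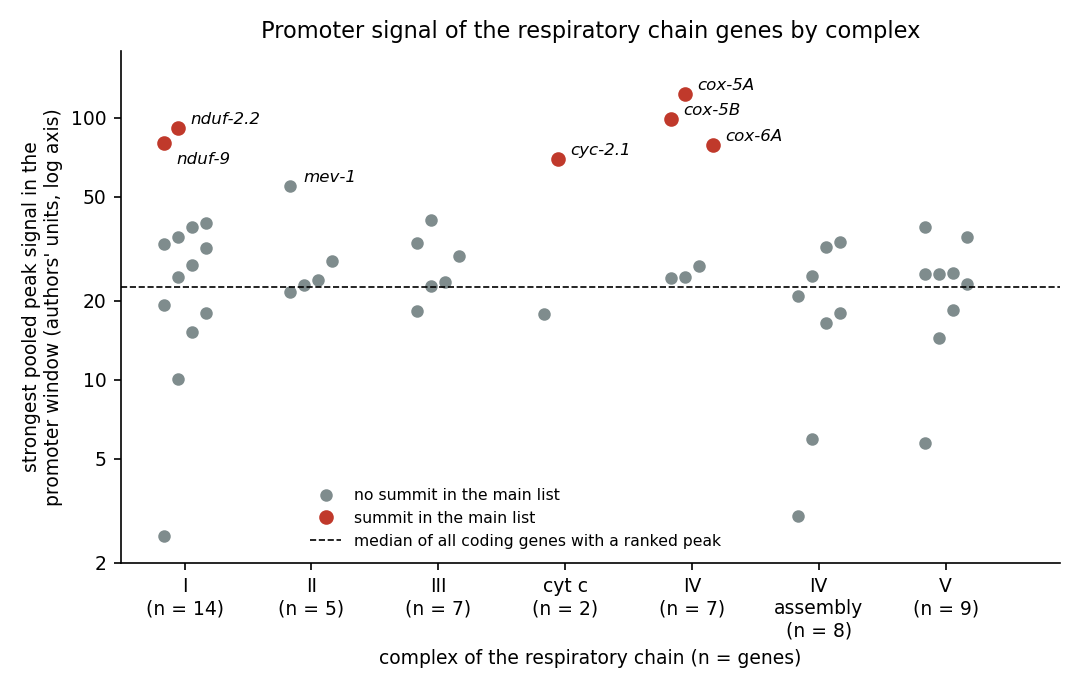
Signal of the strongest pooled ranked peak in the promoter window (authors' units, log axis) for the 50 respiratory chain genes that had one, by complex. Each point is a gene, red where a summit of the main list lay in the window; the dashed line is the median of 22.6 over 14704 coding genes. The 6 red genes lie between 69.7 and 123, and mev-1 at 54.7 is the highest grey point.

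Cytochrome c is encoded by the paralogs cyc-2.1 and cyc-2.2. The cyc-2.1 peak (IV:4748883-4749138) had its summit at 4749011, 1 base inside the annotated 5′ UTR. The signal was 31.6 in replicate 1 (IDR 0.00362) and 37.4 in replicate 2 (IDR 0.149), a mean of 34.5 ± 4.11 (SD, n = 2), and 69.7 in the pooled list. The ribosomal protein gene rpl-20 ends 111 bases upstream on the same strand, and its start lies 767 bases from the summit. cyc-2.2 had a pooled signal of 17.9 and a replicate 2 signal of 12.3, with no ranked peak at that place in replicate 1. The paralogs therefore stood at 159th and 10176th among coding genes.

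In complex I, NADH dehydrogenase, the peak of nduf-2.2 was the strongest. nduf-2.2 and gas-1 are paralogs that encode subunits of this complex. The nduf-2.2 peak (III:6464281-6464536, summit 6464409) lay 813 bases upstream of that gene, inside the non-coding RNA gene T26A5.10 and 630 bases from the divergent dynein light chain gene dlc-1, which is the nearest coding start. The signal was 40.8 in replicate 1 (IDR 0.385) and 45.2 in replicate 2 (IDR 0.00336), a mean of 43.0 ± 3.06 (SD, n = 2), and 90.9 in the pooled list. The 2 signals were close while the IDR of replicate 1 was far above the limit. gas-1, whose mutants are sensitive to volatile anaesthetics, had the lowest pooled signal of the 50 genes with a ranked peak, 2.54 at 4 bases upstream of its start, and no ranked peak there in either replicate. The 101 bases at the nduf-2.2 summit were 71.3% G and C, against 43.6 to 55.4% at the other 5.

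nduf-9 encodes an accessory subunit of complex I. Its peak (III:3249118-3249373, summit 3249246) lay 671 bases upstream, inside the microRNA gene mir-4936 and 1400 bases from the start of the next coding gene, Y53G8AL.4. That gene, on the same strand as nduf-9, ends at base 3249339, closer to the summit than the start of nduf-9. The signal was 33.3 in replicate 1 (IDR 0.0184) and 45.2 in replicate 2 (IDR 0.00158), a mean of 39.3 ± 8.48 (SD, n = 2), and 79.8 in the pooled list. Both replicates had a peak there, and only replicate 2 alone passed the limit. Unlike the cox-6A peak, those of the other 5 genes had no other match of 50 bases or more in the genome.

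The other 12 complex I genes ranged from 2.54 to 39.7. nuo-2, for an iron-sulfur arm subunit, was the highest of them, with 19.3 in replicate 1, 20.4 in replicate 2 and 39.7 in the pooled list at 68 bases upstream (IDR 0.0458). nduf-7 reached 38.2 in the pooled list (95 bases upstream, IDR 0.0751), with 25.4 in replicate 1 and no ranked peak in replicate 2. nuo-4 (35.0), nuo-3 (33.0), nuo-1 (31.9) and nduf-6 (27.5) stood above the median of all coding genes, as did lpd-5 (24.7). nuo-5 (19.2), nduf-5 (18.0), nuo-6 (15.2) and nduf-11 (10.1) stood below it. In replicate 1, nuo-1 had 28.4 at another peak of its window (IDR 0.044).

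Complex II, succinate dehydrogenase, had no summit, and mev-1 came closest of all 52 genes to the limit. mev-1 encodes a cytochrome b membrane subunit whose mutants are sensitive to oxygen. Its signal was 23.7 in replicate 1 (IDR 0.329) and 28.3 in replicate 2 (IDR 0.818), a mean of 26.0 ± 3.23 (SD, n = 2). In the pooled list it was 54.7 with an IDR of 0.011, just outside the limit, where cyc-2.1 with an IDR of 0.00655 was the gene just inside it. The mev-1 peak (III:10334005-10334260, summit 10334133) lay 144 bases upstream, between mev-1 and the divergent gene jmjd-4, whose start was nearer at 115 bases. The remaining genes stayed between 21.6 and 28.4, among them the paralogs sdha-1 (24.1) and sdha-2 (21.6) for the flavoprotein subunit, sdhb-1 (22.9) for the iron-sulfur subunit and sdhd-1 (28.4).

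Complex III, the cytochrome bc1 complex, had a median of 26.6 over 6 genes. The small subunit gene ucr-11 was highest at 40.5 (425 bases upstream, IDR 0.0879), with 17.6 in replicate 1 and 18.7 in replicate 2. In replicate 2, ucr-11 had 27.1 at another peak of its window, 195 bases downstream of the start (IDR 0.648). cyc-1, for cytochrome c1, had 26.5 in replicate 1, 12.6 in replicate 2 and 33.2 in the pooled list, and isp-1, for the Rieske iron-sulfur protein, had 18.2. The core protein genes ranged from 22.7 for ucr-1 through 23.6 for ucr-2.3 to 29.6 for ucr-2.2, and ucr-2.1 had no pooled peak and 7.11 in replicate 2.

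Complex V had a median of 25.3 over its 9 genes. atp-4, for a subunit of the peripheral stalk, was highest with 16.2 in replicate 1, 26.5 in replicate 2 and 38.4 in the pooled list at 35 bases downstream of the start (IDR 0.567). The catalytic beta subunit gene atp-2 had 34.9 and the alpha subunit gene atp-1 had 25.5. atp-3, for the stalk protein that confers oligomycin sensitivity, had 25.3 and atp-5, another stalk subunit gene, had 14.4. The paralogs for subunit b, asb-1 (18.4) and asb-2 (23.2), were close to each other, while those for subunit g were farther apart, at 5.74 for asg-1 and 25.4 for asg-2.

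Over all complexes, the pooled signal had a median of 25.1 over the 50 genes with a ranked peak, against 22.6 over the 14704 coding genes with one, or 73.6% of coding genes. A ranked peak was present for 96.2% of the 52 genes. Of the 50 genes with one, 34 (68.0%) lay above the median of coding genes and 18 (36.0%) above their upper quartile of 30.0, which by definition leave 50 and 25 percent of the 14704 coding genes above them. In the separate lists the medians were 16.7 over 35 genes in replicate 1, against 14.02 for all coding genes, and 16.3 over 40 genes in replicate 2, against 15.0. After the 6 genes at 69.7 and above came mev-1 at 54.7 and ucr-11 at 40.5.

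**Figure D2:**
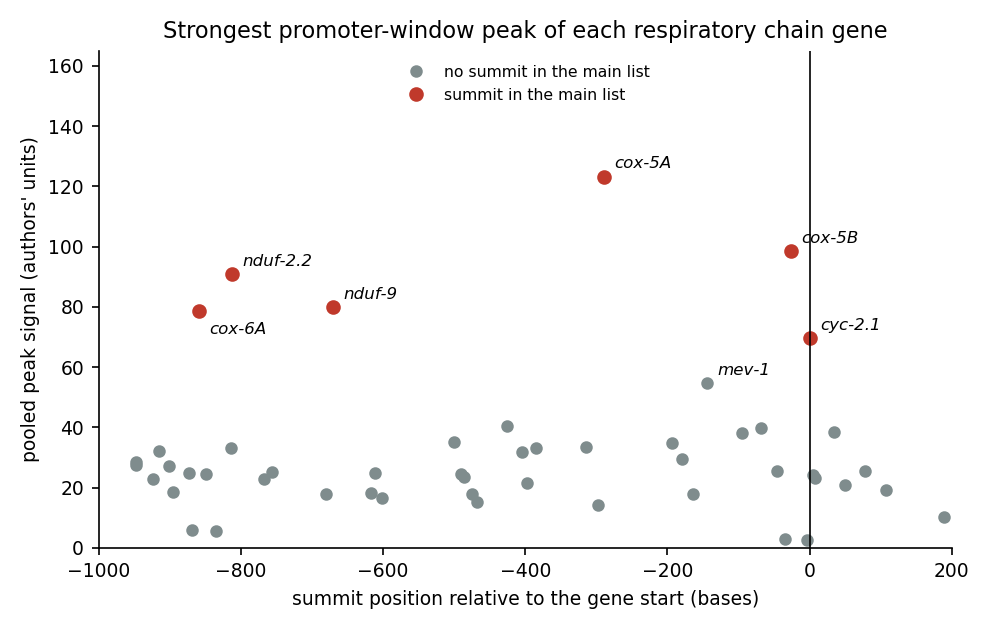
Pooled signal (authors' units) against the position of the summit relative to the gene start (bases, negative upstream) for the 50 genes with a ranked peak in their window. Red points have a summit in the main list: cox-5B and cyc-2.1 lie at the start, cox-5A 289 bases upstream, and nduf-9, nduf-2.2 and cox-6A between 671 and 859 bases upstream.

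The replicates could be compared at the pooled peak of 26 genes, which had a ranked peak there in both. Another 7 had one in replicate 1 only, 11 in replicate 2 only and 6 in neither. Across the 26 genes, the log2 signals of the replicates had a Pearson correlation of 0.773 and a Spearman correlation of 0.653. Without the 6 genes in the main list these were 0.337 and 0.254 over 20 genes, a narrower range of signal by the choice of the 6. Genes are not independent replicates, the replicates share the control alignments, and the values are descriptions. Each replicate has its own peaks, which were compared only where they overlapped the pooled peak. The lowest value of the 6 genes in either replicate was 31.6 (cyc-2.1), and the highest of the other 20 was 28.3 (mev-1). The pooled list that chose the 6 was made from these same replicates. The choice therefore favours such a separation, which is no support for the 6 genes.

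**Figure D3:**
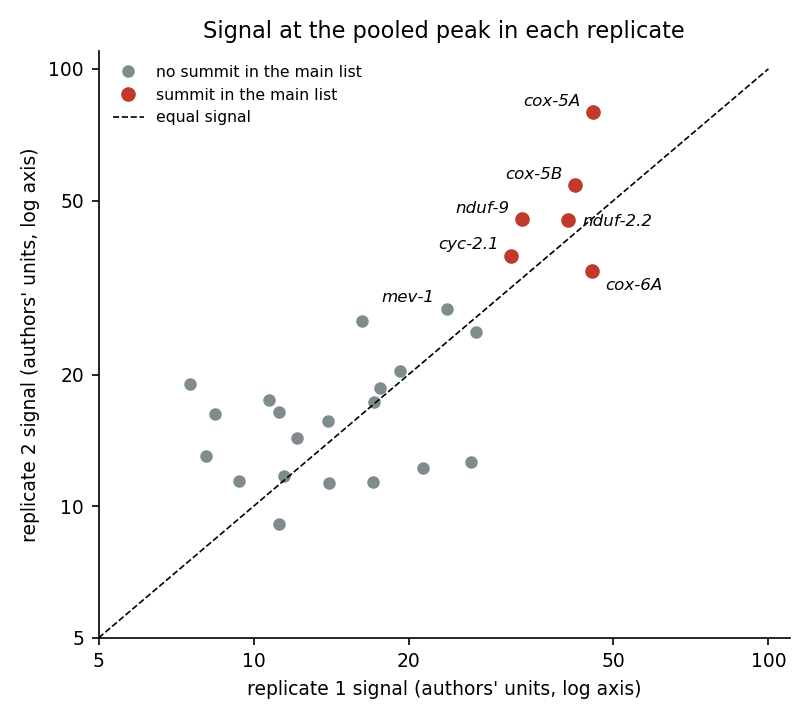
Signal in replicate 1 and replicate 2 (authors' units, log axes) at the pooled peak of the 26 respiratory chain genes with a ranked peak in both. The 6 red genes, with a summit in the main list, have higher values in both replicates than the 20 grey ones, which their choice from these same replicates favours. Of the red genes, only cox-6A lies below the line of equal signal.

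The count depended on how a summit was tied to a gene. With a window of 500 bases upstream to 100 downstream, 3 of 52 genes remained (cox-5A, cox-5B and cyc-2.1), against 1.21% of coding genes. With 2000 bases upstream the count was 8, against 2.93%, as cox-10 (66.8, 1645 bases upstream) and ucr-11 (64.2, 1266 bases upstream, inside the non-coding RNA gene F57B10.17) were added. When a summit counted only for the nearest coding start, nduf-2.2 went to dlc-1 and 5 genes were left, against 1.56%. Starts of any transcript and an overlap of 1 base gave the same 6 genes, against 2.21% and 2.19%. Of 6 genes 1, cyc-2.1, starts within 500 bases behind a coding gene on the same strand, as genes inside worm operons do. This held for 17 of all 52 genes (32.7%) and for 18.1% of coding genes, and without such genes the count was 5, against 1.72%. Among structural subunits alone it was 5, against 1.94%.

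The count also depended on the choice of peaks. The same 6 genes were in the authors' conservative list, against 1.63% of coding genes, and were kept when the list was cut at its median signal, against 1.1%. Ranked peaks with an IDR of up to 0.05 gave 8 genes, with mev-1 and nuo-2 added, against 4.19%. The thresholded list of replicate 2 alone, which leaves out replicate 1, gave nduf-2.2, nduf-9, cox-5A and cox-5B, against 0.616%. That of replicate 1 alone gave cox-5A, cox-5B, cox-6A and cyc-2.1, against 0.661%. 135 ranked peaks past the limit are missing from the main list, and 0 of them had a summit in the window of a respiratory chain gene.

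Non-coding RNA genes lay under 3 of the 6 summits. cox-6A, nduf-2.2 and nduf-9 are the genes whose summit fell inside one, and they are also the 3 with summits more than 500 bases from the start. Leaving out summits within 100 bases of any non-coding RNA gene other than a piRNA gene, an alternative chosen after the data were seen, took away 3 of the 6 genes and 110 of the 388 coding genes (28.4%), which left 1.39% of coding genes. Leaving out only those near transfer, small nucleolar, small nuclear and ribosomal RNA genes took away cox-6A (16.7%) and 78 coding genes (20.1%), which left 1.55%. At cox-5A, cox-5B and cyc-2.1 no non-coding RNA gene other than a piRNA gene lay within 100 bases of the summit. The part of these RNA genes in the signal of the other 3 was not tested.

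**Figure D4:**
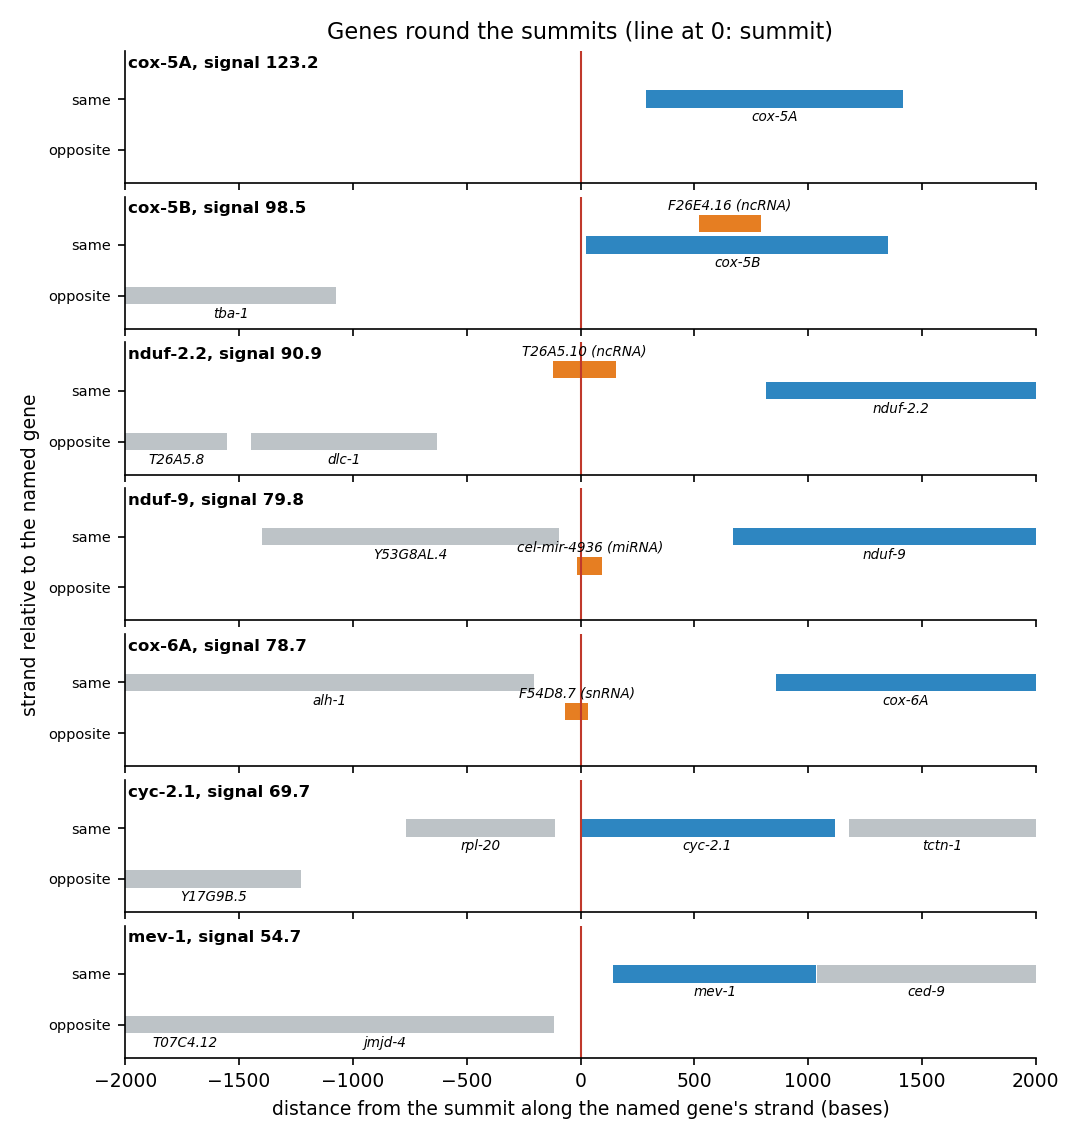
Annotated genes within 2000 bases of the summit (red line at 0) for the 6 genes in the main list and mev-1, drawn along the strand of the named gene (distance in bases). Blue bars are the named gene, grey bars other coding genes and orange bars non-coding RNA genes, and the upper row of each panel is the strand of the named gene. The summit falls inside an orange bar for nduf-2.2, nduf-9 and cox-6A.

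Short words were counted on both strands in the 100 bases centred on each summit. cox-5A and cox-5B, which encode neighbouring subunits of one enzyme, shared ACGCTCCTCAA, the longest word in common among the 15 pairs of the 6 genes. The next longest had 10 bases (cox-5A and nduf-9), and the others had 6 or 7. The word lay 31 bases from the cox-5A summit and 258 bases upstream of that gene, and 17 bases from the cox-5B summit, 43 bases upstream of that gene in the opposite orientation. It was found at 2 of the 1046 main summits (0.191%), these same ones, and in the windows of 10 of the 19973 coding genes (0.0501%). The word was picked by looking at these summits, and its count there is no support for it. It occurs 21 times in the nuclear genome. At the other 8 windows it had no main summit within 50 bases, and where a ranked peak covered it the signal was 17.3 (aco-2 and F54H12.5, which share it), 24.4 (spd-5) and 30.0 (msp-59). Its places outside the windows of coding genes were not looked up in the ranked lists.

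Words of 6 bases that an earlier analysis of these data had named were each present at 1 of the 6 summits at most. Of these, GGCCGA was at cox-5A only, against 9.08% of main summits and 0.991% of the 100-base stretches upstream of coding genes. CGAACC and GAACCC and GTTCGA overlap each other and were at nduf-9 only, against 15.5%, 12.7% and 17.1% of main summits and 1.04%, 1.13% and 2.96% of upstream stretches. ACCACT was at none of the 6, against 16.0% and 2.61%. With only 6 summits, these counts cannot be set apart from the shares of main summits. The words were named from these same data, so their higher shares at main summits than upstream of coding genes are no support for them. The main summits were also not limited to those at coding genes. The repeated word of nduf-2.2, CGCGTCGCACGC, was at 1 of the 1046 main summits and in no upstream stretch. It was picked from the nduf-2.2 stretch, which holds both of its 2 copies in the nuclear genome, so these counts follow from the choice. A match is a description of these letters and not a binding site.

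By chromosome, 4 of the 6 genes were on III, where 13 of the 52 genes lie and 2.99% of all coding genes carried a summit. The gene cox-5B was the 1 of 16 on chromosome I, against 2.88%, and cyc-2.1 the 1 of 6 on IV, against 2.22%. None was found among 6 genes on II, 5 on V and 6 on X, against 1.94%, 0.861% and 1.57%.

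Other genes of mitochondrial function were counted in the same way, each list to be read against the 1.94% of coding genes. The symbols used for mitochondrial protein import and folding had 3 of 17 genes (17.6%). The chaperonin gene hsp-60 had a signal of 59.2 in replicate 1 and 32.2 in replicate 2, and the Hsp70 gene hsp-6 had 31.2 and 38.6. The third, tim-1, had 40.9 and 54.8 and a small RNA gene within 100 bases of its summit, but it matched by its symbol alone: it is the worm homolog of timeless, a protein of chromosome cohesion, and without it the list had 2 of 16 (12.5%). Those 2 were the chaperone genes hsp-60 and hsp-6, which were put in the list by name. No other gene of the list carried a summit, so this share does not describe the import genes. Coenzyme Q synthesis had 1 of 8 (12.5%), the hydroxylase gene clk-1 with 26.55 and 29.5 at 79 bases inside the gene. Further respiratory chain names outside the symbols used above had 2 of 32 (6.25%). They were ndab-2 with 39.2 and 34.7, 80 bases inside, and nduc-2, a complex I name, with 31.9 and 36.5, 55 bases inside. The citric acid cycle had 1 of 19 (5.26%), the dihydrolipoamide dehydrogenase gene dld-1 with 29.5 and 24.5. The mitochondrial ribosome had 2 of 71 (2.82%), mrpl-23 with 57.3 and 57.0 at 981 bases and near a small RNA gene, and mrps-5 with 30.2 and 21.4. Mitochondrial carriers had 0 of 6 and mitochondrial dynamics and quality control 0 of 14. The vacuolar proton ATPase, a proton pump of other membranes, had 1 of 20 (5.0%), vha-20 with 39.0 and 35.4. No difference between these lists was tested.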

How the data were processed

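Per the labels, L4 larvae expressing tagged Y105C5A.15 were studied by ChIP-seq in replicates 1 and 2 of a single group. The deposited files are peak lists on ce11, made from filtered alignments and 1 control alignment file, per the text records deposited with them. For the caller and aligner, nothing is stated in the sources used here. Signal values are those the authors deposited, of unstated scaling. The ranked lists also hold the −log10 of the IDR that the authors computed. A further input of the thresholded lists is recorded without its role. Read depth is unknown.

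Peaks were joined to Ensembl release 115 gene starts (WBcel235, the assembly of ce11; all peak ends lay within its chromosomes) with Python 3.11.15 and pandas 2.3.3. Coordinates are 1-based, and sequences come from the RefSeq copy of that assembly, and that of the cox-6A summit is not reported here. Copies of peaks were sought with blastn 2.17.0. The window rule was tested on simulated data. There is 1 group, so no test was made, and 95% intervals are exact Clopper-Pearson. The alternatives were other lists, windows, starts and members, and each replicate alone. Genes named are those with a summit, the 5 next by signal, the highest of each complex without one, those on either side of the IDR limit, and up to 4 per other list. Other members are given for completeness. The members and lists were chosen with earlier results of these data known.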

Additional observations from a re-analysis of the deposited data

How the results depend on the processing

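The number of respiratory chain genes with a summit was 6 and stayed between 4 and 8 under 12 of the 14 alternatives. It was 3 with a window of 500 bases upstream and 3, the same genes, when summits near any non-coding RNA gene were left out. Leaving out a replicate gave 4 either way, with different genes. Complex I (2) went to 0 with the shorter window, to 1 by nearest coding start, and to between 0 and 2 when a replicate was left out. Complex II (0) had 1 gene at an IDR of up to 0.05. Complex III and the assembly factors (0 each) had 1 gene with the window of 2000 bases. Cytochrome c (1) went to 0 without genes behind a same-strand gene, and to between 0 and 1 by replicate. The mitochondrial ribosome (2) had 1 in the conservative list, 1 with the shorter window and 1 to 2 by replicate. The further respiratory chain names (2) had 0 to 2 by replicate, coenzyme Q and the citric acid cycle (1 each) had 0 in either replicate alone, and protein import (3) had 1 to 2. The vacuolar ATPase (1) had 2 in the conservative list, 0 with the shorter window and 0 to 1 by replicate. The cause of these changes was not tested. Complex IV had 2 to 3 genes, and complex V, the carriers and the dynamics genes 0, under every alternative tried for them. The citric acid cycle gene was aco-2 in place of dld-1 in the conservative list. Signals in either replicate alone were lower than pooled ones for the 6 genes with a summit and for mev-1, ucr-11, nuo-2, atp-4 and cox-17. The same held for nduf-7 in replicate 1, and it had no ranked peak in replicate 2. It did not hold for every other gene given above, such as cox-4, with 29.6 in replicate 2 against 24.6 in the pooled list. No paired analysis was possible because there is 1 group. With no read counts, depth sets no stated limit here.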
